A study of Mus musculus with 8 samples.

Results

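Trace fear conditioning (TFC) was followed in the right hippocampus of mice that lack the T-type calcium channel Cav3.2, by setting the 2 arrays of trained knockout mice (KTR) against the 2 arrays of naive knockout mice (KNR). These are 4 of the 8 right-hippocampus arrays. All 4 remaining arrays, from naive (WNR) and trained (WTR) wild-type mice, gave the estimate of spread and the comparison between genotypes. Probes were kept where the intensity was above 100 on at least 2 of the 4 knockout arrays, which left 15902 of the 16383 probes with values.

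All mice were male, of C57BL/6 background and 6 to 8 weeks old. The knockout mice of both KNR and KTR were homozygous for the Cav3.2 null allele, so the deletion was shared by the groups compared. Trained mice were first habituated to the chamber, received repeated pairings of a tone with a foot shock after a silent interval, and were returned to the same chamber a day later for the contextual test, after which the tissue was taken. Naive mice had no training, and no group received the tone, the chamber or the shock alone, so the parts of the procedure cannot be told apart. RNA of 3 mice was pooled for each group, so training and differences between pools cannot be told apart. The labels number 2 arrays per group but do not say whether they came from separate pools of mice, so the p-values here describe how far arrays of a group differed, and that spread may be technical.

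Cav3.2, encoded by Cacna1h, forms the pore of a calcium channel that opens at low voltage and supports burst firing. In trace conditioning the tone and the shock do not overlap in time, and learning across that interval is known to need the hippocampus. Neuronal activity raises calcium and cyclic AMP, which act through kinases on factors such as CREB to switch on immediate early genes within minutes. These genes, the signalling enzymes and channels upstream of them, and the energy supply of the cell are the groups described below, followed by genes that mark particular cell types or other tissues.

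Cacna1h itself measured 1550.5 and 1489 on the KNR arrays, 1036 and 1439.5 on the KTR arrays, and between 2084.5 and 2575.5 on the 4 wild-type arrays. Every knockout array lay below every wild-type array, though the signal did not reach the floor. Where the probe lies relative to the altered part of the gene is not given in the sources used here. Between KTR and KNR the difference was -0.32 on the log2 scale (SE 0.16, adjusted p = 0.2, limma). Hippocampal markers were measured as labelled: all 7 pyramidal neuron markers tested were above 200 on all 4 knockout arrays, with Camk2a, the main postsynaptic calcium-dependent kinase, at 9282 and 9008 in KNR and 9282 and 9438 in KTR.

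Duplicate arrays correlated at 0.989 in KNR and 0.988 in KTR (Pearson, log2 intensities of all probes with values). The pair of knockout arrays that were least alike, KNR replicate 1 and KTR replicate 2, correlated at 0.947, while KNR replicate 2 and KTR replicate 1 correlated at 0.983. On the first principal component, which held 44.4% of the variance, KNR stood at -38.0 and -13.1 and KTR at 21.2 and 41.1. KNR replicate 1 and KTR replicate 2 thus lay at its ends, with the wild-type arrays between -16.2 and 10.8. On the second component, with 22.2% of the variance, the WNR arrays stood apart at 27.6 and 25, and the other 6 arrays lay between -18.6 and 0.3. Medians of gene lists that changed sign or moved by 0.10 or more without these 2 outlying arrays are given both ways.

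At an adjusted p under 0.05, 2610 of 15902 probes differed between KTR and KNR, which is 16.4% of those tested (limma, 1 fit of all 8 arrays). Of these, 1084 were higher in KTR (6.82%) and 1526 were lower (9.6%). All 2610 had KNR and KTR arrays that did not overlap, as did 67.8% of all probes tested. The changes were mostly moderate, with a median size of 0.71 on the log2 scale, and 541 exceeded 2-fold (265 higher, 276 lower). The median difference over all probes was -0.01.

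In a fit of the 4 knockout arrays alone no probe passed (0 of 15902, 0%, smallest adjusted p = 0.058, limma), though 5393 probes had an unadjusted p under 0.05. Without KNR replicate 1 the count of 2610 became 1 probe and without KTR replicate 2 it became 5. It was 1309 without KNR replicate 2, 884 without KTR replicate 1, 1723 without either WNR array and 1529 without either WTR array. With both KNR replicate 1 and KTR replicate 2 left out, the median size over the 2610 probes was 0.55.

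**Figure D1:**
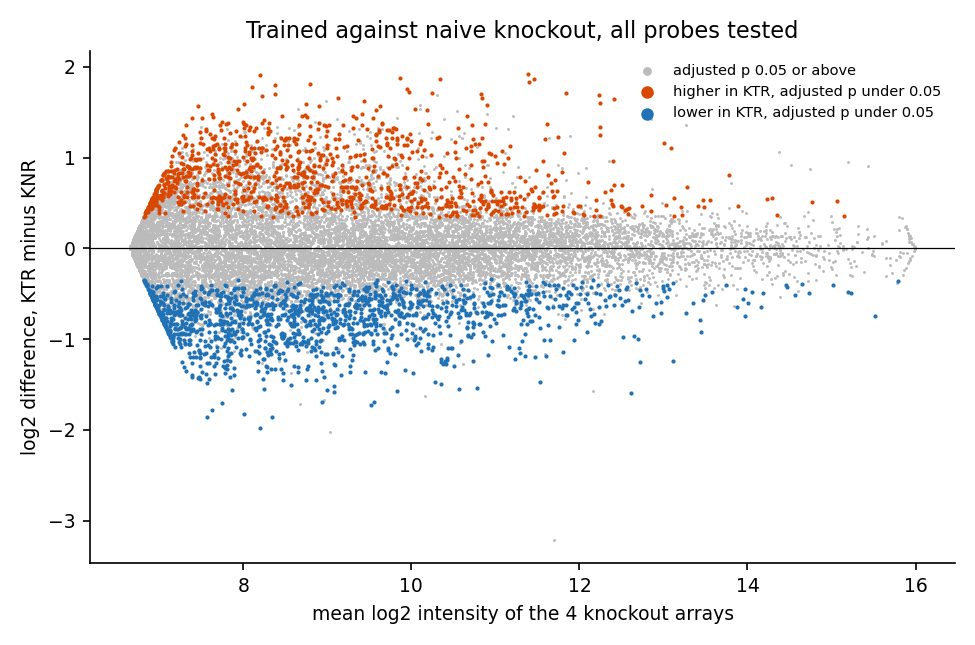
Log2 difference KTR minus KNR (vertical axis) against the mean log2 intensity of the 4 knockout arrays (horizontal axis), 1 point per probe; orange and blue points passed an adjusted p of 0.05 in the fit of all 8 arrays. The 1084 higher and 1526 lower probes were spread over the whole range of intensity, and the median of all probes was at -0.01.

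Among the genes with the widest gap between the nearest KNR and KTR arrays, those that fell included genes of glycogen, lipid and protein turnover. Ppp1r3c, which targets protein phosphatase 1 to glycogen, measured 605 and 567 on the KNR arrays and 143 and 153 on the KTR arrays. Its fall was 3.96-fold (-1.98 on the log2 scale, SE 0.19, adjusted p = 0.012), and both KTR arrays lay far below all 6 other arrays. Wild-type mice moved the same way, from 653 and 990 to 477 and 473 (-0.76, adjusted p = 0.059), and the difference between genotypes was -1.23 (adjusted p = 0.047). Without KNR replicate 1 and KTR replicate 2 the Ppp1r3c difference was -1.99.

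Acsl4, a long-chain acyl-CoA synthetase that favours arachidonic acid, measured 1364 and 1299 in KNR and 332 and 489 in KTR, a 3.31-fold fall (adjusted p = 0.012). Another pair of Acsl4 probes differed by only -0.27 and -0.21 and did not pass, so the gene's probes disagreed. Psmc5, an ATPase of the proteasome's regulatory particle, measured 2469 and 2721 in KNR and 777 and 1005 in KTR, a 2.93-fold fall (adjusted p = 0.012). In wild-type mice Psmc5 stayed between 1951 and 2278 in both groups, and the interaction was -1.56 (adjusted p = 0.032). Ecpas, an adaptor of the proteasome, fell 2.95-fold (adjusted p = 0.023). Ranbp9, a scaffold of the CTLH ubiquitin ligase, fell 3.56-fold (adjusted p = 0.016).

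Sfxn1, a mitochondrial serine transporter, measured 906 and 921 in KNR and 314 and 322 in KTR, a 2.87-fold fall (adjusted p = 0.012), while its other probe fell by 0.50 on the log2 scale (adjusted p = 0.034). The 2 arrays of each group agreed closely. The groups were widely separated, which is the ground on which the gene was named. Nemf, which acts in ribosome quality control, fell 2.74-fold (adjusted p = 0.012), but its other probes differed by -0.09 and -0.67 and did not pass. The nucleosome-binding protein gene Hmgn3 fell 2.86-fold (adjusted p = 0.012), Vxn, known from frog embryos to promote neurogenesis, 3.63-fold (adjusted p = 0.02), and Uhrf1bp1l 3.22-fold (adjusted p = 0.012, with its other probe at 0.01 on the log2 scale).

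For Acta2 and Mrpl37 the KNR arrays lay above all 4 wild-type arrays and the KTR arrays below them. Acta2, the actin of smooth muscle, measured 397 and 339 in KNR, 114 and 88.6 in KTR and between 176 and 202 on the wild-type arrays (-1.78, SE 0.12, adjusted p = 0.012). Its other, brighter probe fell from 1495 and 1571 to 979 and 930 (-0.68, adjusted p = 0.018), so both probes fell. Mrpl37, a protein of the mitochondrial ribosome, measured 453 and 291 in KNR and 78.0 and 99.2 in KTR, both under the floor of 100, which makes its fall at least 3.63-fold (adjusted p = 0.012).

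The 12 genes with the widest gap in the other direction included a transcription factor, an inhibitor of apoptosis and genes named for other tissues. Usf1, a transcription factor that binds E-box sequences, measured 89.6 and 104 on the KNR arrays and 311 and 294 on the KTR arrays (1.57, SE 0.17, adjusted p = 0.012). On the wild-type arrays Usf1 was between 244 and 418, so KNR was the group that stood apart. The other Usf1 probe differed by 0.11 (adjusted p = 0.47). Birc3, an inhibitor of apoptosis in NF-kappaB signalling, measured 125 and 177 in KNR and 465 and 564 in KTR, a 3.45-fold rise (adjusted p = 0.014), with the wild-type arrays between 278 and 367. Dck, the deoxycytidine kinase of nucleoside salvage, measured 1135 and 1194.5 in KNR and 2750.5 and 3301 in KTR, a 2.59-fold rise (adjusted p = 0.012). Dck also rose with training in wild type, by 0.77 (adjusted p = 0.031), and the difference between the genotypes did not pass (0.60, adjusted p = 0.091).

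Stc2, a secreted stanniocalcin, rose 2.72-fold (adjusted p = 0.012) and the interferon-induced Gbp2b 2.42-fold (adjusted p = 0.016). Fam71e2 rose 3.67-fold (adjusted p = 0.018). The other 6 were the odorant receptor genes Olfr983, Olfr275 and Olfr555, the hair keratin gene Krt84, the prostate transglutaminase gene Tgm4 and Elf3, an ETS factor of epithelia. Olfr275, the brightest of them, measured 1081 and 2022 in KNR, 4727 and 6121 in KTR and between 3285 and 6073 in wild type (1.86, adjusted p = 0.023). Here too KNR was the group below the rest, and on the log2 scale its 2 arrays differed by more than those of KTR.

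**Figure D2:**
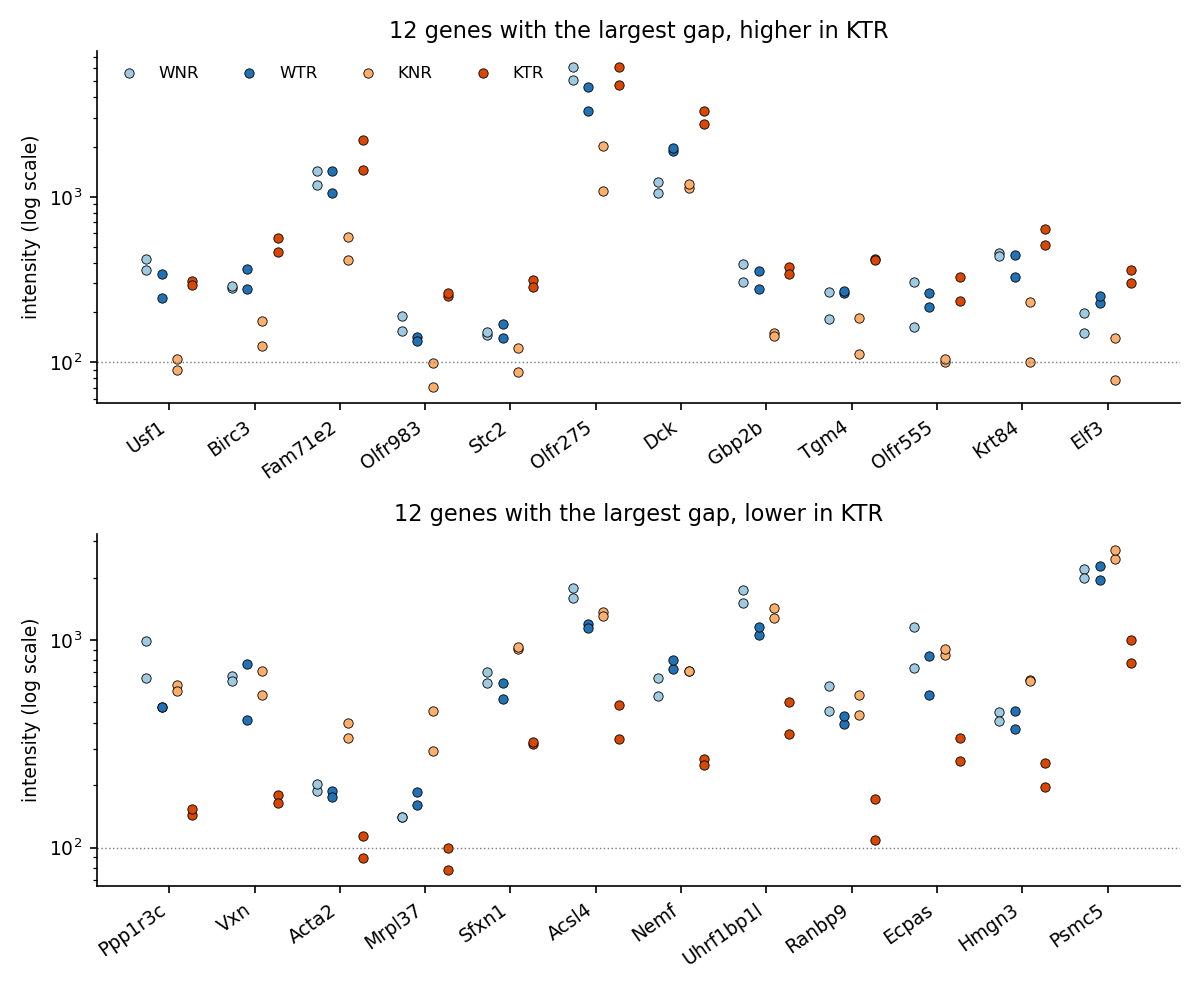
Intensity on each of the 8 arrays (vertical axis, log scale; 2 points per group) for the 12 genes with the largest gap between KTR and KNR in each direction; the dotted line is the floor of 100. In the upper panel KNR has the lowest mean for every gene but Dck, whose naive groups lie together near 1135, and in the lower panel both KTR points lie below all others for all 12 genes.

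Of 39 immediate early genes tested, 1 rose and 5 fell in the trained knockout, which is 15.4% against 15.8% of all genes tested (10756 genes, 1 probe each; 6.51% higher, 9.29% lower). Over all these genes 67.9% had KNR and KTR arrays that did not overlap. The share of 15.8% is the background for each list below. Their median difference was -0.06 (0.03 without the 2 outlying arrays), beside -0.01 over all genes. Dusp1, a phosphatase that switches off MAP kinases, measured 732 and 670.5 in KNR and 382 and 354 in KTR (-0.93, SE 0.11, adjusted p = 0.014). In wild type it fell too, from 710.3 and 719 to 470.01 and 539 (-0.51, adjusted p = 0.048). Dusp4, a related phosphatase, fell by 0.62 in the knockout (adjusted p = 0.02) and by 0.48 in wild type (adjusted p = 0.036).

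Npas4, a transcription factor induced by calcium entry that shapes inhibitory synapses, measured 459 and 425 in KNR and 292 and 290.4 in KTR (-0.60, SE 0.12, adjusted p = 0.026). The KTR values were close to those of wild type, which lay between 237 and 290.1 in both groups, so naive knockout tissue was the high group. The zinc finger factor Egr4 fell by 0.65 (adjusted p = 0.034) while Ptgs2, the inducible prostaglandin synthase, differed by -0.72 (adjusted p = 0.028; named after its values were seen). Klf4, a zinc finger factor, measured 642 and 1081 in KNR and 1713 and 2154 in KTR (1.21, SE 0.24, adjusted p = 0.027). Its other probes differed by -0.68 and 1.03, so they did not move one way. Fos, Arc and Egr1, the members most used as markers of recent activity and picked here for that reason after their values were seen, differed by -0.27 (adjusted p = 0.16), -0.06 (adjusted p = 0.77) and -0.45 (adjusted p = 0.1). In wild type none of the 39 rose and 4 fell, beside 6.74% of all genes past the threshold there (3.39% higher, 3.35% lower). Fos was among those that fell (-0.57, adjusted p = 0.043).

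The promoters of 4 of these genes are printed because the cyclic AMP response element, where CREB binds, is the best known link between activity and this group. Each run covers 250 bases before to 50 after the gene's start on GRCm38.p6 (RefSeq), read on the gene's strand, with the core of that element, TGACG or its reverse complement CGTCA, in capitals, and where both overlap they form 1 longer run of capitals.
Npas4 (chr19:4989922-4990221, minus strand): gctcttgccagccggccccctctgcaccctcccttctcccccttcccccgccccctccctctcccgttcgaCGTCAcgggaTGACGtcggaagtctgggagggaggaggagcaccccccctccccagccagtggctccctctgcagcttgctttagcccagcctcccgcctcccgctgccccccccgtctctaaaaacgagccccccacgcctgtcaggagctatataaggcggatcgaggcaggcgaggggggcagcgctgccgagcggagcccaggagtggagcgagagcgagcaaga
Dusp1 (chr17:26508423-26508722, minus strand): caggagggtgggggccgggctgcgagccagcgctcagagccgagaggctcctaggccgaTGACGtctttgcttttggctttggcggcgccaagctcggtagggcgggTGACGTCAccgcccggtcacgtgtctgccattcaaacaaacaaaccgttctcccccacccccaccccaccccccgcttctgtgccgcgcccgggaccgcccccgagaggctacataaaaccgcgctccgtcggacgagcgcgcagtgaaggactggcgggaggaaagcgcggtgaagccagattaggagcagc
Egr4 (chr6:85513540-85513839, minus strand): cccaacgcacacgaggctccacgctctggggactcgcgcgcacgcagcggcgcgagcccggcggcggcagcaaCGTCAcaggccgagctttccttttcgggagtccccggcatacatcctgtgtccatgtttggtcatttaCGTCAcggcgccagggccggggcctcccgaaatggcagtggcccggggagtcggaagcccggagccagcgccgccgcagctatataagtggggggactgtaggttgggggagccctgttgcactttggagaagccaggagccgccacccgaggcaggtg
Klf4 (chr4:55532426-55532725, minus strand): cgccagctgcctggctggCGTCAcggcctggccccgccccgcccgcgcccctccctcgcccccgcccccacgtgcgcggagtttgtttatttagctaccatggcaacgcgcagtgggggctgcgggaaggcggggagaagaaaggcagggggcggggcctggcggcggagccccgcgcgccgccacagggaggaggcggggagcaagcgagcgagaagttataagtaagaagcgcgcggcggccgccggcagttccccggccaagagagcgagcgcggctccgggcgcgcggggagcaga

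Npas4 and Egr4 each held 2 such cores, Dusp1 3 and Klf4 1. In Dusp1 both orientations overlapped at 143 bases before the gene's start. Over the 39 immediate early genes, 32 had a promoter in the table and 25 of these (78.1%) held a core on either strand in any of their promoters. Counted the same way it was 23% of the 27025 genes in the table, and 20.8% of all 32851 promoters. All 5 of the changed members with a promoter in the table held one. The core was thus shared by Klf4, which rose, and by the examined members that fell. As 78.1% of the list held it, its presence does not set the changed members apart. A match is a run of letters and not a measured site.

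Of 45 enzymes of calcium and cyclic AMP signalling none rose and 6 fell, a share of 13.3% that was below the 15.8% over all genes, and the median was -0.02 (0.07 without the 2 outlying arrays). Adcy9, an adenylyl cyclase, measured 771 and 733 in KNR and 399 and 246 in KTR (-1.26, SE 0.28, adjusted p = 0.032). Prkacb, a catalytic subunit of protein kinase A, measured 6738 and 6804 in KNR and 4614 and 4134 in KTR (-0.63, adjusted p = 0.031). Neither pair of groups overlapped, which the choice of named members required, and in wild type neither gene passed. The regulatory subunit Prkar2a measured 222 and 166 in KNR and 85.8 and 75.5 in KTR, both under the floor, which makes its fall at least 1.92-fold (adjusted p = 0.035). With a floor of 200 its call was lost. Rapgef4, the cyclic AMP sensor Epac2, differed by -0.62 (adjusted p = 0.02). Ryr2, a calcium release channel of the endoplasmic reticulum, fell by 0.67 (adjusted p = 0.033) on the brighter of its probes and differed by -0.01 on the other. Ryr2 and Rapgef4 also fell with training in wild type (-0.74 and -0.47, adjusted p = 0.038 and 0.036).

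In the MAP kinase cascade 1 of 38 members rose and 5 fell, a share of 15.8% that equals the one over all genes, with a median of -0.02 (0.03 without the 2 outlying arrays). Mapk14, the stress kinase p38 alpha, measured 1131 and 1171.5 in KNR and 628 and 580.5 in KTR (-0.93, SE 0.14, adjusted p = 0.019). Rasgrf1, a calcium-activated exchange factor for Ras, measured 19777 and 18450.0 in KNR and 12611 and 13312 in KTR (-0.56, adjusted p = 0.024). The groups were apart for both genes, which the choice of named members required. Rasgrf1 fell by 0.55 in wild type as well (adjusted p = 0.034).

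Ion channels and receptors gave changes in both directions. None of 18 voltage-gated calcium channel genes tested passed in either direction, with a median of -0.23 (-0.10 without the 2 outlying arrays). Of 39 potassium channel genes, 2 rose and 5 fell (17.9%; median -0.03, 0.09 without the 2 outlying arrays). Kcnn2, a calcium-activated potassium channel of small conductance that limits excitability and plasticity in hippocampal pyramidal cells, measured 429.6 and 407 in KNR and 212 and 172 in KTR (-1.13, SE 0.13, adjusted p = 0.013). Its relative Kcnn3 went the other way, from 333 and 431 to 724 and 776 (0.99, SE 0.17, adjusted p = 0.023). For Kcnn2 and Kcnn3 the KNR and KTR arrays did not overlap, which the choice of named members required. Kcnd1, an A-type channel, measured 361 and 371 in KNR and 688 and 707 in KTR (0.93, adjusted p = 0.014), and Kcnip2, an auxiliary subunit of A-type channels, measured 681 and 482 in KNR and 302 and 244 in KTR (-1.08, adjusted p = 0.023). The other Kcnd1 probe differed by 0.27 (adjusted p = 0.56). The 2-pore channel gene Kcnk2 fell by 0.74 (adjusted p = 0.017).

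Of 10 GABA receptor genes 2 rose and 1 fell (30%; median 0.07, -0.03 without the 2 outlying arrays). Gabrb1 fell from 1659.5 and 1345 to 929 and 706 (-0.88, SE 0.16, adjusted p = 0.024). Gabra5, whose receptors sit largely outside synapses in the hippocampus, rose from 2148 and 1925 to 3059 and 2713 (0.50, adjusted p = 0.036), and Gabrg1 rose by 0.82 (adjusted p = 0.025). The Gabrb1 change differed from that of wild type, where it was 0.23 (interaction -1.12, adjusted p = 0.043). Of 17 glutamate receptor genes none rose and 2 fell (11.8%; median -0.14, 0.00 without the 2 outlying arrays). They were Grm7, a presynaptic receptor (-0.72, adjusted p = 0.027), and Gria3, an AMPA receptor subunit (-0.60, adjusted p = 0.029), whose other probes differed by 0.35 and -0.60 without passing.

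In the vesicle release machinery 3 of 39 genes rose and 2 fell (12.8%). Cplx2, a complexin that clamps and promotes fusion, measured 2135 and 2409 in KNR, 1540.3 and 1455.5 in KTR, 897 and 933 in WNR and 1523 and 1762.5 in WTR. It fell in the knockout (-0.60, adjusted p = 0.027) and rose in wild type (0.84, adjusted p = 0.028), an interaction of -1.44 (adjusted p = 0.032). The trained groups met at a similar level from opposite sides. Syt1, the calcium sensor of fast release, rose by 0.36 (adjusted p = 0.042), and its other probe by 0.52 (adjusted p = 0.027).

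**Figure D3:**
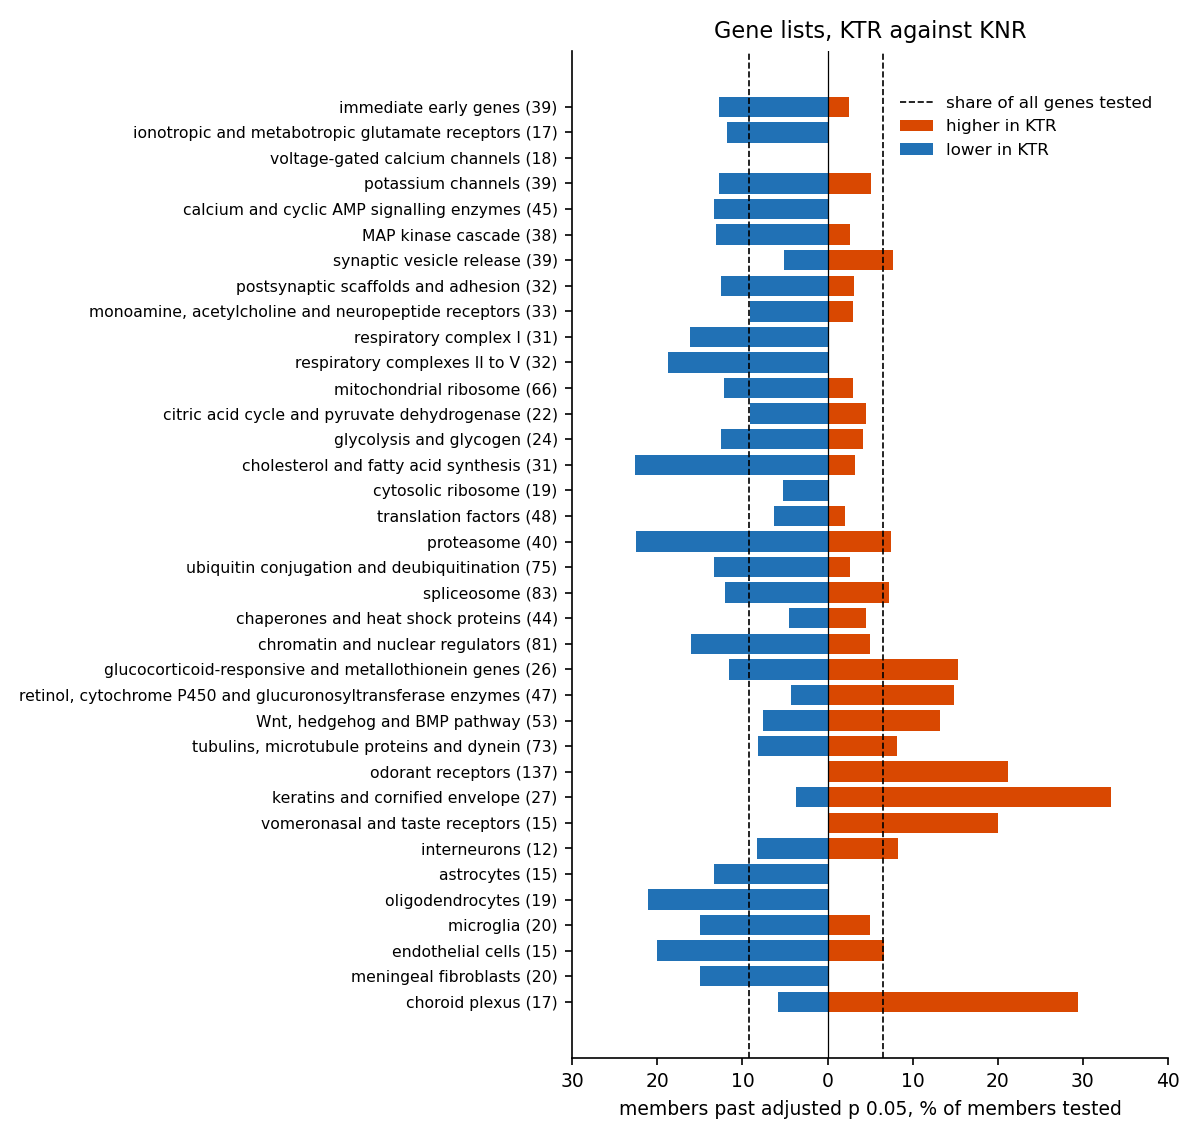
Members past an adjusted p of 0.05 as a percentage of the members tested (number in brackets) for the lists with at least 12 members tested, lower in KTR to the left in blue and higher to the right in orange; dashed lines mark the shares over all genes tested, 9.29% lower and 6.51% higher. Odorant receptors had 29 of 137 members higher and none lower, while the proteasome had 9 of 40 lower and 3 higher.

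In the knockout, 5 of 31 complex I genes fell with training and none rose (16.1%, median -0.06), and of 32 genes of complexes II to V 6 fell and none rose (18.8%, median 0.01). In wild type 12 of the complex I genes rose and none fell (median 0.45), beside 6.74% of all genes past the threshold there (3.39% higher, 3.35% lower). The interaction was negative for 8 complex I genes, 4 genes of complexes II to V and 9 of 66 mitochondrial ribosome genes, and positive for none, beside 5.26% of all genes (3.24% negative, 2.03% positive). The group that stood apart was WNR: in median level, centred gene by gene over the 8 arrays, complex I was at -0.32 and -0.27 in WNR, 0.16 and 0.17 in WTR, 0.11 and 0.12 in KNR and 0.04 and 0.06 in KTR. Over all probes the interaction calls fell from 843 to between 1 and 21 when any 1 array was left out, and to 1 with the replicate number as a block. Oxidative phosphorylation is a pathway that the study picked out on these samples, so its list is not independent of them.

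Ndufb10, an accessory subunit of complex I, measured 1188 and 1089 in KNR and 561 and 506 in KTR (-1.10, SE 0.11, adjusted p = 0.012). Its wild-type arrays were all higher, at 1695 and 1636 in WNR and 1957 and 2088 in WTR (interaction -1.37, adjusted p = 0.032). Ndufv2, a core subunit, fell from 2755 and 2661 to 1909.5 and 1379.5 in the knockout (-0.74, adjusted p = 0.029). In wild type it went from 1840.2 and 1797 to 2872 and 2917 (0.67, adjusted p = 0.051), and the naive groups did not overlap. The interaction was -1.41 (adjusted p = 0.032). Ndufa13 differed by -0.48 in the knockout (adjusted p = 0.047) and 0.59 in wild type (adjusted p = 0.045), with an interaction of -1.07 (adjusted p = 0.037).

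Atp5g3, which encodes the rotating c subunit of ATP synthase, measured 14013 and 13196 in KNR and 6106 and 5413 in KTR (-1.24, SE 0.12, adjusted p = 0.012). This was a 2.37-fold fall, and in wild type all 4 arrays lay between 9757 and 12216 (0.18, adjusted p = 0.38). Sdhb, the iron-sulfur subunit of complex II, fell by 0.83 (adjusted p = 0.028), while Uqcr11 of complex III differed by -0.45 (adjusted p = 0.041), against a rise of 0.79 in wild type (adjusted p = 0.028). Of the mitochondrial ribosome, 8 of 66 genes fell and 2 rose (15.2%, median -0.11, and 0.35 in wild type). Mrps35 fell from 313 and 288 to 138 and 130.2 (-1.16, adjusted p = 0.017). Mrpl54 measured 1079.7 and 989.7 in KNR, 661 and 573 in KTR, 411 and 446 in WNR and 780.4 and 907 in WTR. Naive tissue of the genotypes thus differed more than trained tissue did, and the interaction was -1.72 (adjusted p = 0.028).

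**Figure D4:**
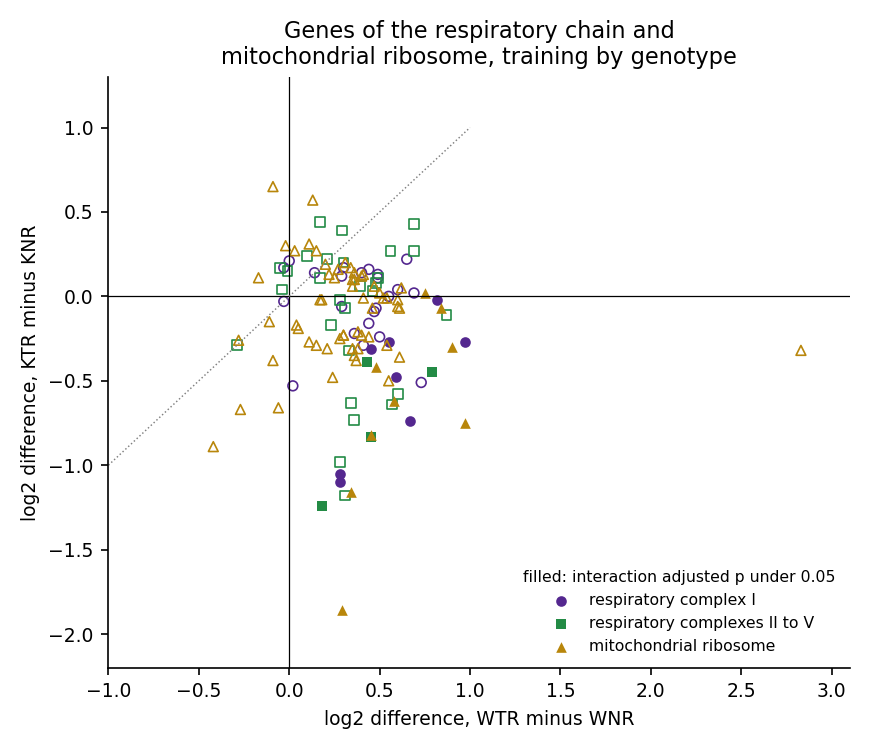
Log2 difference with training in the knockout (KTR minus KNR, vertical axis) against that in wild type (WTR minus WNR, horizontal axis) for 31 genes of respiratory complex I, 32 of complexes II to V and 66 of the mitochondrial ribosome; filled symbols passed the interaction at an adjusted p of 0.05 and the dotted line marks equal change. Most points lie to the right of zero and below the dotted line, as for Atp5g3 at 0.18 and -1.24; the point at 2.83 is Mrps6, whose wild-type value rests on 1 WNR array listed at 4.18.

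Of 40 proteasome genes 9 fell and 3 rose (30%; median -0.16, -0.09 without the 2 outlying arrays). Beside Psmc5, the assembly chaperone gene Psmd10 fell from 1140.2 and 1147 to 763.5 and 735 (-0.61, adjusted p = 0.03), where wild type differed by 0.33 (interaction -0.94, adjusted p = 0.041). Ubiquitin-conjugating and deubiquitinating enzymes had 10 of 75 lower and 2 higher (16.0%; median -0.07, 0.02 without the 2 outlying arrays). The spliceosome, another pathway the study picked out on these samples, had 10 of 83 genes lower and 6 higher (19.3%, median -0.07). Snrnp200, the helicase that unwinds U4 from U6, measured 1329 and 1261 in KNR and 559 and 528 in KTR (-1.25, SE 0.11, adjusted p = 0.012) and fell in wild type by 0.68 (adjusted p = 0.031). Sf3b5, of the branch site complex, fell from 4569.7 and 4114 to 2151 and 2147 (-1.01, adjusted p = 0.012), while Lsm8, of the U6 ring, differed by -1.35 (adjusted p = 0.023). For Sf3b5 and Lsm8 the wild-type differences were 0.30 and 0.42, and both interactions passed (-1.31 and -1.76).

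Chromatin and nuclear regulators had 13 of 81 genes lower and 4 higher (21.0%, median -0.11). Hdac6, the cytoplasmic tubulin deacetylase, measured 569 and 492 in KNR and 263 and 269.9 in KTR (-0.99, SE 0.11, adjusted p = 0.012) and fell by 0.73 in wild type (adjusted p = 0.029). Brd1, of the HBO1 histone acetyltransferase complexes, fell by 1.16 (adjusted p = 0.022). In the list of cholesterol and fatty acid synthesis 7 of 31 genes fell and 1 rose (25.8%, median -0.03). Sqle, the squalene epoxidase of cholesterol synthesis, measured 619 and 639 in KNR, 285 and 326 in KTR, 825 and 702 in WNR and 332 and 444 in WTR. Sqle fell in each genotype (-1.04 and -0.99, adjusted p = 0.021 and 0.03), and the difference between them was -0.06 (adjusted p = 0.89). Dhcr7, which makes cholesterol in the last step, fell by 0.52 in the knockout (adjusted p = 0.029), with an interaction of -0.84 (adjusted p = 0.04).

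Metallothionein 3, Mt3, a zinc-binding protein of astrocytes and neurons, moved in opposite directions in the genotypes. It measured 5703 and 5834 in KNR, 3964 and 4224 in KTR, 2706 and 2588.5 in WNR and 6403 and 6304 in WTR. After training it was lower in the knockout (-0.50, adjusted p = 0.026) and higher in wild type (1.26, adjusted p = 0.022). The interaction was -1.76 (adjusted p = 0.017). The WNR arrays were the lowest of the 8. Morn2 and Pgbd5, a gene derived from a piggyBac transposase, showed the same exchange. Morn2 went from 546 and 509 to 279 and 203 in the knockout and from 285 and 276.5 to 559.7 and 581 in wild type (interaction -2.17, adjusted p = 0.028). Pgbd5 went from 286 and 250.5 to 124 and 117 in the knockout and from 193 and 206 to 365 and 377 in wild type (interaction -2.05, adjusted p = 0.017), though another Pgbd5 probe differed by 0.33 in the knockout (adjusted p = 0.066). Fam133b gave an interaction of -2.01 (adjusted p = 0.035). In the positive direction the 4 largest were Olfr275, Olfr657, Olfr559 and 4930505N22Rik, the last of which differed by 0.67 in the knockout without passing (adjusted p = 0.16).

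Microtubule and dynein genes were evenly split, with 6 of 73 higher and 6 lower (16.4%, median 0.01). Map1b, which stabilises microtubules in growing axons, measured 981 and 889 in KNR and 364 and 268 in KTR (-1.58, SE 0.30, adjusted p = 0.025), while its dimmer probe differed by 0.11 (adjusted p = 0.45). Dynlt1, a dynein light chain, rose from 1215 and 1187 to 2594 and 2734 (1.15, SE 0.14, adjusted p = 0.014) and by 1.02 in wild type (adjusted p = 0.026). In the Wnt, hedgehog and BMP pathways 7 of 53 genes rose and 4 fell (20.8%, median 0.02), with Gli3, a hedgehog transcription factor, up by 1.14 (adjusted p = 0.029) while the ligand Wnt2 differed by -0.82 (adjusted p = 0.021), against a rise of 0.69 in wild type (adjusted p = 0.034). Retinol, cytochrome P450 and glucuronosyltransferase genes had 7 of 47 higher and 2 lower (19.1%; median 0.16, 0.06 without the 2 outlying arrays). Cyp2c55 rose from 279.6 and 232 to 592 and 593 (1.22, adjusted p = 0.012), and Adh1, an alcohol dehydrogenase that also oxidises retinol, by 1.70 (adjusted p = 0.026). Retinol metabolism and the hedgehog genes belong to pathways that the study listed from these samples, so these counts are not independent of them.

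Genes best known from other tissues rose in several lists. Of 137 odorant receptor genes tested, 29 rose and none fell (21.2%), 130 had a positive difference, and the median was 0.55 beside -0.01 over all genes. Without the 2 outlying arrays the median was 0.23, and in wild type (WTR minus WNR) it was 0.09. Their summed intensity was 28024 and 36919 on the KNR arrays and 47077 and 58876 on the KTR arrays, and ran from 41238 to 51513 on the wild-type arrays. KNR was below every other group, and the duplicates of each group also differed. In median level, centred gene by gene over the 8 arrays, KNR stood at -0.50 and -0.16, KTR at 0.03 and 0.40, WNR at 0.20 and -0.13 and WTR at 0.20 and 0.01. Of these genes 34 were above 200 on all 4 knockout arrays, and odorant receptor genes are near-identical copies in places, so a probe may read more than 1 of them. A gene under 100 on both KNR arrays could enter through its KTR arrays alone, and its difference was then positive in advance. Olfr983 was such a case, at 70.7 and 98.0 in KNR and 249 and 263 in KTR. The reverse could also occur. Genes of either kind were not counted, so how many of the 29 calls and 130 positive signs were fixed in this way is not known here.

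Keratin and cornified envelope genes had 9 of 27 higher (median 0.30, 0.19 without the 2 outlying arrays) and 1 lower (37.0% in all), Krtcap2, which the name prefix brought in and which encodes a subunit of the oligosaccharyltransferase, not a keratin. Lce1c, of the cornified envelope, measured 96.2 and 143 in KNR, 242 and 364 in KTR and between 363 and 476 in wild type (1.31, adjusted p = 0.023). All 15 vomeronasal and taste receptor genes had a positive difference, and 3 passed (20%; median 0.49, 0.13 without the 2 outlying arrays). The limit that the filter sets on the odorant receptor signs applies to these genes too.

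**Figure D5:**
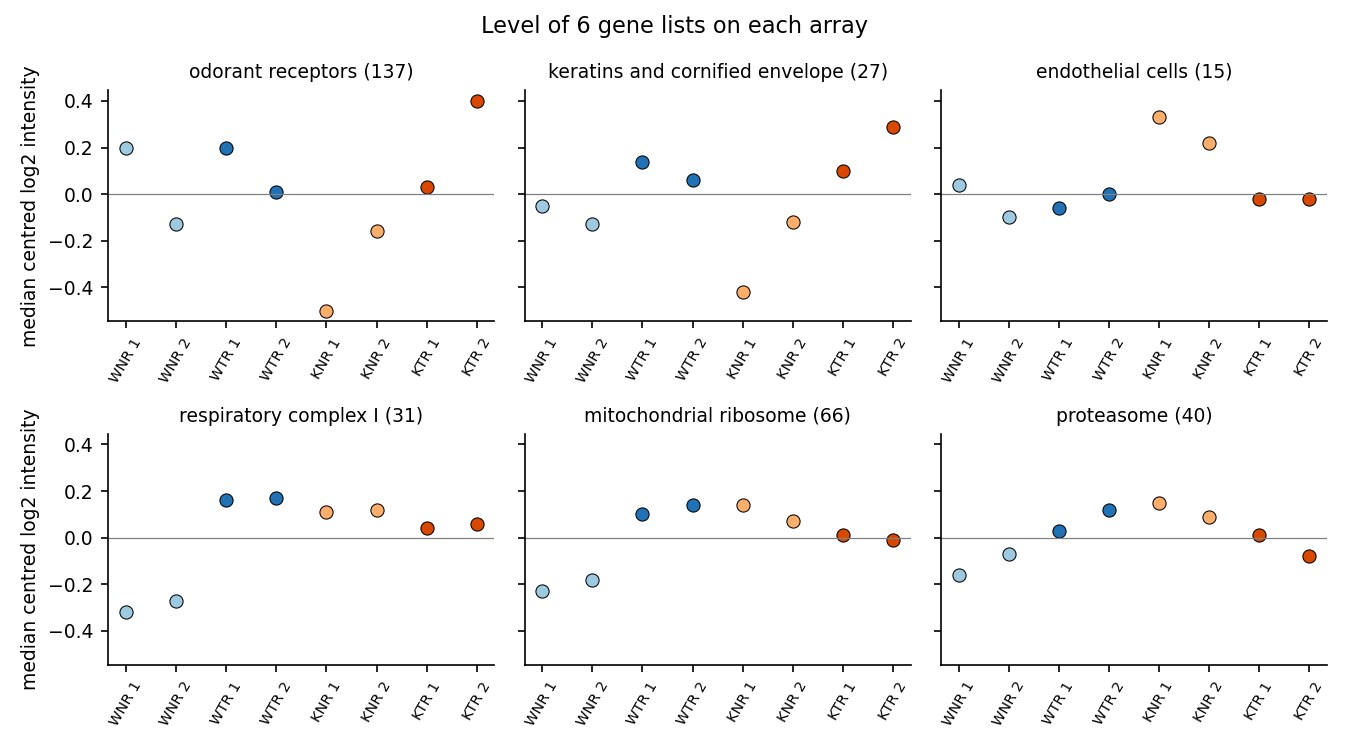
Median over the members of 6 gene lists (number of genes in brackets) of the log2 intensity centred on each gene's mean over the 8 arrays (vertical axis), 1 point per array and coloured by group. Odorant receptors run from -0.50 on KNR replicate 1 to 0.40 on KTR replicate 2, keratins have the same arrays at their ends, endothelial markers are highest on the KNR arrays, and complex I and the mitochondrial ribosome are lowest on the WNR arrays.

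Marker lists of hippocampal neurons were called near the 15.8% over all genes or below it. Shares were 11.1% for the dentate gyrus, 11.1% for CA1, 11.1% for CA2 and CA3, 14.3% for pyramidal neurons and 16.7% for interneurons. In pooled tissue fewer cells of a type and less RNA per cell cannot be told apart. Of 9 dentate gyrus markers none rose and 1 fell: Prox1, the fate factor of granule cells, from 405.03 and 366 to 201 and 159 (-1.11, SE 0.14, adjusted p = 0.015), with -0.63 in wild type (adjusted p = 0.045). The CA1 marker Spink8 fell from 2310.1 and 1948 to 948 and 807 (-1.28, adjusted p = 0.016) and was the only one of 9 CA1 markers to pass (median -0.37, -0.08 without the 2 outlying arrays). Their summed intensities changed little for the dentate gyrus (28447 and 29312 in KNR, 28868 and 28783 in KTR) and were 23308 and 22542 in KNR against 20114 and 18338 in KTR for CA1. Of 7 pyramidal markers only Neurod6 passed (-0.57, adjusted p = 0.039).

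Oligodendrocyte markers had 4 of 19 lower and none higher (21.1%, median -0.13), with Cldn11, a claudin of myelin, from 22594 and 23172 to 15543 and 13707 (-0.65, adjusted p = 0.023). Endothelial markers had 3 of 15 lower and 1 higher (26.7%; median -0.28, -0.30 without the 2 outlying arrays), and their summed intensity was 11336 and 11889 in KNR and 9317 and 9825 in KTR. Flt1, a receptor for vascular endothelial growth factor, fell from 676 and 649 to 326 and 282 (-1.13, SE 0.13, adjusted p = 0.014). Slc2a1, the glucose transporter of the blood-brain barrier, fell by 0.85 (adjusted p = 0.029). The pericyte marker Rgs5 differed by -1.01 (adjusted p = 0.023). Its list of pericyte and smooth muscle markers did not fall as a whole, with 6 of 11 differences positive and a median of 0.03. Microglial markers had 3 of 20 lower and 1 higher (20%; median -0.21, -0.10 without the 2 outlying arrays), and Aif1, a calcium-binding protein of these cells, differed by -0.89 (adjusted p = 0.04). The part of vessel, myelin and microglial content in the other falls was not tested.

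Choroid plexus markers went the other way, with 5 of 17 higher and 1 lower (35.3%; median 0.27, 0.14 without the 2 outlying arrays). Their summed intensity was 25145 and 25925 in KNR and 27558 and 30757 in KTR, and in wild type it was 23841 and 22978 in WNR and 34365 and 41015 in WTR. Most of this was Ttr, the transthyretin secreted by the plexus, which measured 19518 and 20040.0 in KNR and 20596 and 22954 in KTR (0.14, adjusted p = 0.48). Kl, the anti-ageing protein klotho, rose by 0.46 (adjusted p = 0.037) and Wfdc2 by 0.84 (adjusted p = 0.027). The median of 4 blood genes was 0.48, and -0.02 without the 2 outlying arrays. Of these Slc4a1, the anion exchanger of red cells, rose by 1.31 (adjusted p = 0.032), from 325 and 623 to 1015.5 and 1221. The part of plexus or blood in the genes that rose was not tested.

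Of 32 genes of postsynaptic scaffolds and adhesion, 1 rose and 4 fell (median -0.11), and of 33 receptors for monoamines, acetylcholine and neuropeptides, 1 rose and 3 fell (median 0.19). The citric acid cycle and pyruvate dehydrogenase had 1 of 22 genes higher and 2 lower, and glycolysis and glycogen metabolism 1 of 24 higher and 3 lower. In protein synthesis 1 of 19 cytosolic ribosome genes fell and none rose, while 1 of 48 translation factor genes rose and 3 fell (median -0.10, 0.01 without the 2 outlying arrays). Chaperones had 2 of 44 higher and 2 lower, and the list of glucocorticoid-responsive and metallothionein genes, which holds Mt3, had 4 of 26 higher and 3 lower (26.9%, median -0.08). Among the other cell types, 2 of 15 astrocyte markers fell, both described above (Ppp1r3c and Mt3; list median -0.05, 0.05 without the 2 outlying arrays), as did 2 of 11 markers of pericytes and smooth muscle (Rgs5 and Acta2; list median 0.03, -0.03 without them) and 3 of 20 meningeal fibroblast markers, with none of these lists showing a rise. Of 12 interneuron markers 1 rose and 1 fell (median -0.06, 0.04 without the same arrays), of 9 markers of CA2 and CA3 and of 8 ependymal markers 1 rose in each list, and none of 6 markers of oligodendrocyte precursors passed.

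Set directly against wild type, 843 of 15902 probes (5.3%) passed the training by genotype interaction, 298 with a more positive difference in the knockout (1.87%) and 545 with a more negative one (3.43%). Training in wild type gave 1006 probes (6.33%), 523 higher (3.29%) and 483 lower (3.04%). Of the 2610 probes that differed in the knockout, 491 also passed the interaction. The KTR minus KNR difference is 1 side of the interaction, so that choice favoured passing. The 491 therefore cannot be set against the 5.3% over all probes. Those past the threshold in both genotypes comprised 33 that rose in both, 100 that fell in both and 55 that moved in opposite directions. Leaving out any 1 of the 8 arrays took the interaction to between 1 and 21 probes.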

How the data were processed

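RNA of the right hippocampi of 3 mice per group was hybridised to 1-colour Mouse Whole Genome OneArray slides, 2 arrays in each of 4 groups. The deposited values are intensities that the authors quantile normalized. The floor of 100 that their methods name is not applied in the table. Values lie on a linear scale, with medians between 484.65 and 485.44 and 5.76 to 5.9% of values below 100; 2 arrays per group limit the precision. Of 29922 probes 13539 had no value and 16383 did; 13072 carried 1 gene symbol (11011 genes), none several and 3311 none. Symbols were updated from the RefSeq gene table (2101 changed, 26 not found). The sources used here do not give a build for the probes. RefSeq promoters were those of GRCm38.p6.

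Values under 100 were set to 100 and log2 was taken. Probes above 100 on at least 2 of the 4 knockout arrays were fitted in limma 3.58.1 (R 4.3.3; lmFit, eBayes) with a mean per group, and adjusted by Benjamini-Hochberg over all 15902 probes; the interaction was (KTR minus KNR) minus (WTR minus WNR). Named genes had 1 symbol. The 12 with the largest gap in each direction passed 0.05, did not overlap and exceeded 200 on both arrays of the higher group. Up to 5 members of each of 45 lists passed 0.05 and did not overlap, without the rule of 200. The 4 largest interactions in each direction passed 0.05 for the interaction, and their KNR and KTR arrays did not overlap. Cacna1h was named whatever its values. List members used the probe of the highest mean. The members and lists were chosen with earlier results of these data known. Folds are after the floor, and "at least" marks a group wholly under it. The fit was tested on simulated data. Alternatives were a fit of the 4 arrays alone, a replicate block, other floors and filters, an intensity trend, SAM (the study's test) and leaving out arrays. 2 arrays against 2 cannot reach an exact permutation p below 0.333, so no exact permutation test of single probes was run. SAM took its q from the same 6 label orders of the 4 knockout arrays, pooled over probes.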

Additional observations from a re-analysis of the deposited data

Results flagged for a closer look

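The training differences of the 2 genotypes were compared directly in the same fit, and 843 of 15902 probes (5.3%) passed at an adjusted p of 0.05. Among the genes named above, 46 passed, 14 with a positive and 32 with a negative log2 interaction, at adjusted p-values from 0.017 to 0.047 (limma). Most were named for a large KTR minus KNR difference, which is 1 side of the interaction, and some for the interaction itself. That choice favoured passing, so their count cannot be set against the share over all probes. With the replicate number as a block the 843 became 1.

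In positive interactions the training difference was more positive in the knockout than in wild type. Such values were 2.0 for Usf1, 1.62 for Birc3, 1.96 for Fam71e2, 1.39 for Stc2 and 1.41 for Gbp2b. The odorant receptor genes gave 1.67 for Olfr983, 2.38 for Olfr275, 2.07 for Olfr657 and 2.03 for Olfr559. They were 2.02 for 4930505N22Rik, 0.86 for Kcnd1, 1.75 for Cyp2c55, 1.59 for Lce1c and 1.23 for Wfdc2.

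Negative interactions among genes of the respiratory chain and mitochondrial ribosome were -1.37 for Ndufb10, -1.41 for Ndufv2, -1.07 for Ndufa13, -1.42 for Atp5g3, -1.27 for Sdhb, -1.24 for Uqcr11, -2.15 for Mrpl37, -1.72 for Mrpl54 and -1.50 for Mrps35. In protein and RNA turnover they were -1.56 for Psmc5, -0.94 for Psmd10, -1.31 for Sf3b5, -1.76 for Lsm8, -1.82 for Nemf and -1.46 for Hmgn3. Metabolic genes gave -1.23 for Ppp1r3c, -1.30 for Sfxn1, -1.20 for Acsl4, -0.84 for Dhcr7 and -1.76 for Mt3.

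Neuronal genes gave -1.32 for Kcnip2, -1.12 for Gabrb1, -1.44 for Cplx2 and -1.87 for Spink8. Markers of other cells gave -1.68 for Acta2, -0.87 for Cldn11, -0.95 for Flt1 and -1.49 for Aif1. The remaining values were -2.17 for Morn2, -2.05 for Pgbd5, -2.01 for Fam133b and -1.50 for Wnt2.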

How the results depend on the processing

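For the 90 named genes, the adjusted p no longer passed in 492 of the 1528 comparisons with an alternative. The loss was uneven, as many alternatives stay close to the main fit. In the fit of the 4 knockout arrays alone 88 genes lost their call. The remaining 2, Cacna1h and 4930505N22Rik, had not passed in the main fit. With a floor of 200 the loss was 40 genes, with the replicate block 9 and with a floor of 50 it was 1. The count of 2610 probes that differed between KTR and KNR became 0 in the fit of the 4 knockout arrays alone. In that fit 5393 had an unadjusted p under 0.05. The count was 868 with a floor of 200 and 367 with SAM (145 higher, 222 lower). It stayed within 1.5 times with a floor of 50, no filter, a filter above 200, the floor set before normalization and an intensity trend. Leaving out 1 array gave between 1 and 1723 probes, and leaving out both KNR replicate 1 and KTR replicate 2 gave 0 for the knockout, 0 for the interaction and 0 for wild type (limma; 2128, 2534 and 4015 at an unadjusted p under 0.05). With an intensity trend the interaction rose from 843 to 1519 and the wild-type count from 1006 to 1629. Leaving out 1 array gave 1 to 21 probes for the interaction and 0 to 3 for wild type. The causes were not tested.

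The replicate number of the labels was used as a block. Deviations of same-numbered arrays correlated at 0.44 between KNR and KTR, 0.28 between WNR and WTR, and -0.24 to -0.39 across genotypes; the labels do not say what a number marks, so the arrays share only a number. With the replicate block in the fit of all 8 arrays the knockout count was 1498, the interaction 1 and wild type 0 (3833 at an unadjusted p under 0.05), and with the block in the fit of the 4 knockout arrays alone it was 6170. List medians moved by more than the spread between duplicates in 69 of 765 comparisons. Many of these could not move: the fit of the 4 knockout arrays, the block and leaving out a wild-type array keep the KTR minus KNR difference as it was. Without both KNR replicate 1 and KTR replicate 2, 19 medians moved and 26 did not.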
